A study of Nasonia vitripennis with 70 samples.

Results

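ACP and Acpr are a neuropeptide and its receptor in the jewel wasp Nasonia vitripennis, a parasitoid of fly pupae in which females come from fertilized and males from unfertilized eggs. The pair was taken by symbol, as 2 of the 14621 genes of the count table, and was followed over all 16 groups of the study. ACP, the adipokinetic hormone/corazonin-related peptide, has a sequence between those of adipokinetic hormone and corazonin, and Acpr is the G protein-coupled receptor that it activates. Adipokinetic hormone mobilizes stored fat and sugar from the insect fat body, and corazonin acts in stress and metabolic physiology. ACP is known from wasps, beetles and mosquitoes, has been lost in Drosophila melanogaster and in the honeybee, and in insects that have it is known mainly from neurons. What it does is less well settled than for its relatives. The reference annotation lists HrTH as another name of the ACP gene.

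Poly-A RNA was sequenced in 70 libraries, each of a head or an abdomen sample of WGDL wasps taken 1 day after emergence, WGDL being a line in which colchicine had doubled the genome. Every group belongs to this line, so no group is a wasp from outside it. Triploid (3N) and diploid (2N) females came from generation F14 and from generation F2 of the line, and diploid (2N) and haploid (1N) males came from F15 and F5. Each of the 8 groups of wasps gave a head group and an abdomen group of 4 or 5 libraries. Libraries are known by code, and nothing in the labels says whether they came from separate animals or pools, so p-values measure the spread between these libraries. Generation cannot be told apart from the time of collection, and the sexes were never taken from the same generation.

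Library totals ran from 12163580 to 25061605 expected counts. Eye markers (Lop1, HisCl1 and white) summed to between 991 and 9860 CPM, read counts scaled to library size, in heads and to at most 2.44 CPM in abdomens other than C46, described next. The female germline markers nanos and oskar summed to 471 to 951 CPM in female abdomens, 0.833 to 3.27 CPM in male abdomens and at most 8.09 CPM in heads. One library went against its label. Library C46, labelled as an abdomen of F5 2N males, correlated across genes at 0.988 with F5 2N male heads and at 0.776 with the abdomens of its group, and its Lop1 stood at 3658 CPM against at most 0.414 CPM in the other 4 abdomens. It was left out of every group, and values that it moves are also given with it kept. Head libraries also differed in make-up. The odorant receptor gene Or1, an antennal marker, ran from 1.65 to 463 CPM over heads, and the muscle markers Tm1, Tm2 and Zasp66 summed to between 484 and 8233 CPM.

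Both genes had their highest levels in heads. Measured per length as TPM, which divides reads by transcript length and library size, ACP averaged 276.5 TPM over the 35 heads, rank 588 of 14613 genes, and Acpr averaged 159 TPM, rank 1069. In the 34 abdomens ACP averaged 17.1 TPM and Acpr 3.57 TPM, ranks 6726 and 9373. The peptide stood above its receptor in TPM in 28 of 35 heads. The exceptions were 4 of 4 F14 2N female heads, 2 of 4 F14 3N female heads and 1 of 4 F2 2N female heads, while in all 18 male heads ACP was the higher of the pair. The ratio of ACP to Acpr in TPM had a median of 1.88 in male heads (range 1.06 to 4.20) and 1.10 in female heads (range 0.634 to 2.86).

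ACP was highest in F5 1N male heads, at 478 ± 288 TPM (SD, n = 5). F5 2N male heads followed at 375 ± 67.9 TPM (n = 5), F2 3N female heads at 349 ± 58.2 TPM (n = 5) and F14 3N female heads at 261 ± 65.8 TPM (n = 4). The lower heads were F15 2N males at 203 ± 163 TPM, F2 2N females at 196 ± 42.3 TPM, F15 1N males at 135 ± 75.6 TPM and F14 2N females at 123 ± 15.5 TPM (n = 4 each). Every neighbouring pair in this order of heads overlapped, so the order of neighbours lies within the spread of libraries. The lowest head group by mean did not overlap the abdomen group next in order, F5 1N males. Single heads of other groups did: the lowest F15 1N and F15 2N male heads had 64.2 and 78.8 TPM, and the highest F5 1N male abdomen had 86.3 TPM. By CPM, 6 of 8 head groups held the same rank for ACP. F2 2N female heads, at 18.1 ± 4.87 CPM, then stood above F14 3N female heads, at 13.6 ± 2.71 CPM.

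ACP in male abdomens came next, at 55.3 ± 24.8 TPM in F5 1N (n = 5), 38.03 ± 18.1 TPM in F5 2N, 17.2 ± 10.1 TPM in F15 1N and 14.8 ± 9.06 TPM in F15 2N (n = 4 each). No male abdomen overlapped a female one. In female abdomens ACP averaged 2.82 ± 1.85 TPM in F2 2N, 2.42 ± 1.89 TPM in F14 3N, 0.588 ± 1.09 TPM in F2 3N and 0.432 ± 0.865 TPM in F14 2N. Among the 17 female abdomens ACP had no count in 6 libraries, which allows up to 0.0985 to 0.144 CPM depending on the library, and at most 11 counts in any.

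Acpr was more even over heads. By TPM, F14 3N females stood first, at 248 ± 13.4 TPM (n = 4), and their 4 libraries did not overlap the next group. F5 1N males (173 ± 40.8 TPM, n = 5), F14 2N females (173 ± 17.3 TPM, n = 4), F5 2N males (155 ± 50.3 TPM, n = 5) and F2 3N females (154 ± 30.8 TPM, n = 5) overlapped one another in turn. F2 2N females had 142 ± 22.7 TPM, F15 2N males 133 ± 68.8 TPM and F15 1N males 90.0 ± 53.6 TPM (n = 4 each). This order depended on the unit, and 3 of 8 head groups held the same rank by CPM. By CPM, F5 1N males stood first, at 159 ± 20.3 CPM (range 133 to 182). They overlapped F14 3N females, at 141 ± 13.3 CPM (range 127 to 153). In abdomens Acpr lay between 7.97 ± 2.49 TPM in F5 1N males (n = 5) and 0.368 ± 0.0996 TPM in F2 3N females (n = 5), with F15 2N and F5 2N males at 6.98 ± 2.74 and 5.91 ± 1.64 TPM. Those 3 male groups overlapped, and F15 1N males, at 2.66 ± 1.13 TPM, overlapped the F14 3N female abdomens at 2.33 ± 1.80 TPM.

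**Figure D1:**
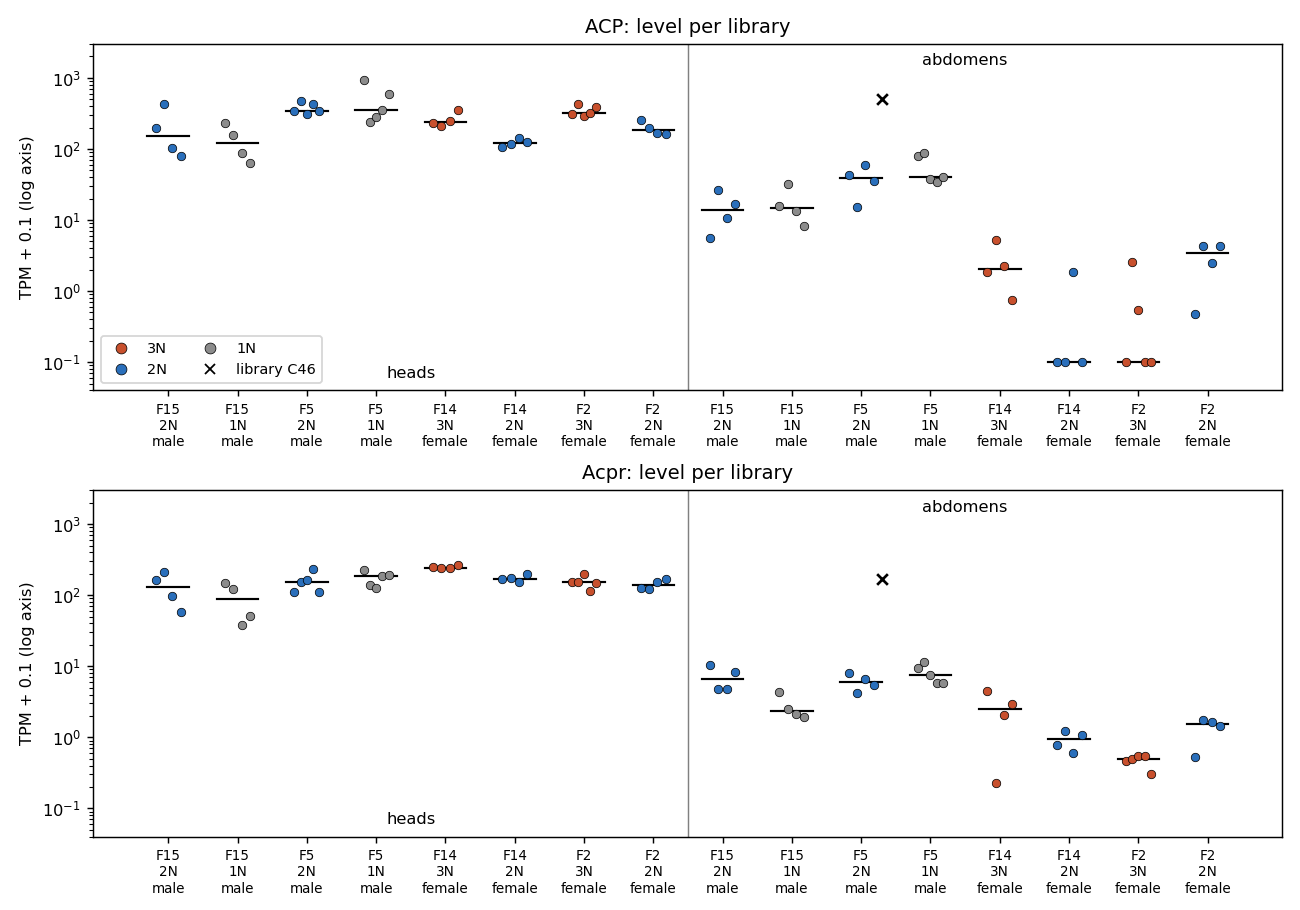
Level of ACP (top) and Acpr (bottom) in each library, as TPM plus 0.1 on a log axis, for the 16 groups, with heads on the left and abdomens on the right. Points are libraries coloured by ploidy, lines are group medians and the cross is C46. With C46 set aside, every head lies above the abdomens of its group for both genes, and female abdomens lie lowest for ACP.

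Acpr carries a further uncertainty. On the reference annotation it overlaps the protein-coding gene LOC100121752, and the library kit named in the labels is not stated to keep strand. All Acpr expected counts were whole numbers, so the counting left no read divided between Acpr and another gene. Whether any read was given whole to the wrong gene was not tested. LOC100121752 had a median of 146 TPM in heads and 151 TPM in abdomens, where Acpr averaged 3.57 TPM. Its own changes are given beside some of those of Acpr, and not for ploidy or sex in heads. ACP overlaps no annotated gene, and its nearest neighbour, LOC100124272, lies 65 bases away with a median of 24.4 TPM in heads and 29.9 TPM in abdomens.

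The tissue comparison tested heads against abdomens within each sex and ploidy, in edgeR fits over all libraries of a sex. ACP averaged 22.5 ± 11.4 CPM in 2N male heads (SD, n = 9) and 2.92 ± 2.11 CPM in 2N male abdomens (n = 8). In 1N males it averaged 25.4 ± 19.4 CPM in heads (n = 9) and 3.70 ± 2.78 CPM in abdomens (n = 9). The log2 difference was 2.98 ± 0.34 (SE) in 2N males, with an adjusted p of 3.96e-09, and 2.78 ± 0.32 in 1N males, with an adjusted p of 7.53e-09. The libraries of heads and abdomens overlapped in 1N males, where generations are pooled, and not in 2N males. Of all genes tested, 70% and 66% were called in these comparisons. In females the head excess of ACP was 7.53 ± 0.47 in 3N and 6.95 ± 0.49 in 2N, with adjusted p of 2.45e-15 and 4.16e-14, where 82.6% and 86% of genes were called. These female values rest on few abdominal counts: without C39, which leaves 1 count over F2 3N abdomens, the 3N value was 8.52, and without C77 the F14 2N abdomens all stand at 0 and no size can be given.

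Acpr was higher in heads as well. It averaged 111 ± 36.7 CPM in 2N male heads (n = 9) and 7.11 ± 2.47 CPM in 2N male abdomens (n = 8), a log2 difference of 3.93 ± 0.25 with an adjusted p of 1.76e-14. With C46 kept, the 2N male differences were 2.73 for Acpr and 2.21 for ACP. In 1N males the Acpr difference was 4.54 ± 0.25, with an adjusted p of 1.12e-15. In females it was 7.34 ± 0.33 in 3N and 7.13 ± 0.33 in 2N, with adjusted p of 9.46e-19 and 2.97e-18. Neither the difference between the genes nor that between the sexes in these tissue effects was tested. Neuron markers (Syt1, Para and 6 nicotinic acetylcholine receptor subunits) were also higher in heads, 8 of 8 in females of each ploidy and 7 of 8 in males of each ploidy, with Syt1, the synaptic vesicle calcium sensor synaptotagmin, 5.92 log2 units higher in heads of 3N females. The overlapping gene LOC100121752 went the other way in males, at -2.59 in 2N and -2.19 in 1N, and was 0.90 and 0.96 higher in heads of 3N and 2N females. In bulk tissue, fewer cells that make a transcript and less transcript per cell cannot be told apart.

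The generation comparison in heads gave ACP the same sign in all 4 strata: later heads had less of it in both sexes and at each ploidy. In 3N females, ACP had 14.8, 10.3, 12.9 and 16.6 CPM at F14, against 24.8, 34.6, 22.6, 31.4 and 33.5 CPM at F2. The lowest F2 library stood above the highest F14 library. The log2 change was -1.10 ± 0.32 (SE), with an adjusted p of 0.00642, where 43.6% of genes were called, and 21.4% were called lower. In 2N females, ACP had 6.24, 7.52, 9.27 and 7.11 CPM at F14, against 24.7, 18.9, 15.3 and 13.7 CPM at F2. These groups did not overlap either, and the log2 change was -1.27 ± 0.33, with an adjusted p of 0.0122 and 16.4% of genes called (9.78% lower).

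In males the later generation was F15. ACP in 2N male heads had 13.9, 26.1, 7.04 and 7.66 CPM at F15, against 38.6, 32.1, 20.4, 33.1 and 35.2 CPM at F5. C93, the highest F15 library, lay inside the F5 range, and the others lay below it. The log2 change was -1.22 ± 0.32, with an adjusted p of 0.0161, against 10.2% of genes called (5.33% lower). In 1N male heads ACP had 14.5, 10.4, 10.7 and 7.09 CPM at F15, against 68.1, 22.5, 30.2, 31.8 and 49.6 CPM at F5. The groups did not overlap, and the change of -1.92 ± 0.33 was the largest of the 4, with an adjusted p of 0.000132 and 22.9% of genes called (9.76% lower). Without C92 the 2N male change was -1.003, with an adjusted p of 0.0763, and without C91 it was -1.02, with an adjusted p of 0.0677. With the 2 groups fitted alone it was -1.20, with an adjusted p of 0.221, in a fit that called 2 of 10591 genes.

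On the TPM scale the fall of ACP in female heads was smaller. By limma on log2(TPM + 0.5) the change was -0.43 in 3N and -0.66 in 2N females, with adjusted p of 0.350 and 0.220, and the median change of all genes was 0.44 and 0.40. By this scale 4453 genes were called higher and 842 lower in 3N females, against 2617 and 2523 by counts, and 1641 higher and 234 lower in 2N females, against 778 and 1152 by counts. The 2N male value was -1.18, with an adjusted p of 0.0694. With each library centred on its median gene, an alternative added after the data were seen, ACP was called in all 4 strata, and the medians of all genes by counts were within 0.1 of 0 in each. In the edgeR fits of counts, LOC100124272, the nearest neighbour of ACP, also had negative changes in these 4 strata. They were -0.45 in 3N females, -0.40 in 2N females, -0.55 in 2N males and -0.41 in 1N males. Their adjusted p were 0.0207, 0.0866, 0.0234 and 0.0524. LOC100124273, on the other side of ACP, changed by 1.16 (adjusted p = 0.0229), 0.68, -0.12 and -0.38 in the same order. The part of these neighbours in the ACP changes was not tested.

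Acpr was called in 1 of the same 4 comparisons. In 1N male heads it had 99.9, 92.6, 47.5 and 52.9 CPM at F15, against 171, 133, 142, 182 and 165 CPM at F5. No F15 library reached the F5 range, and the log2 change was -1.11 ± 0.21, with an adjusted p of 0.000401. In 2N male heads Acpr had 122, 137, 77.8 and 58.9 CPM at F15, against 130, 107, 112, 189 and 123 CPM at F5. The groups overlapped there, with a change of -0.42 (95% interval -0.85 to 0.01) and an adjusted p of 0.194. The change was 0.22 (-0.20 to 0.64) in 3N female heads and -0.16 (-0.61 to 0.28) in 2N female heads, with adjusted p of 0.388 and 0.630. LOC100121752, which overlaps Acpr, changed by -0.70 in 1N males, with an adjusted p of 0.00470, and by -0.68 in 3N females, with an adjusted p of 0.00319. It was not called in 2N males (-0.51, adjusted p = 0.0552) or in 2N females (-0.02, adjusted p = 0.953).

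**Figure D2:**
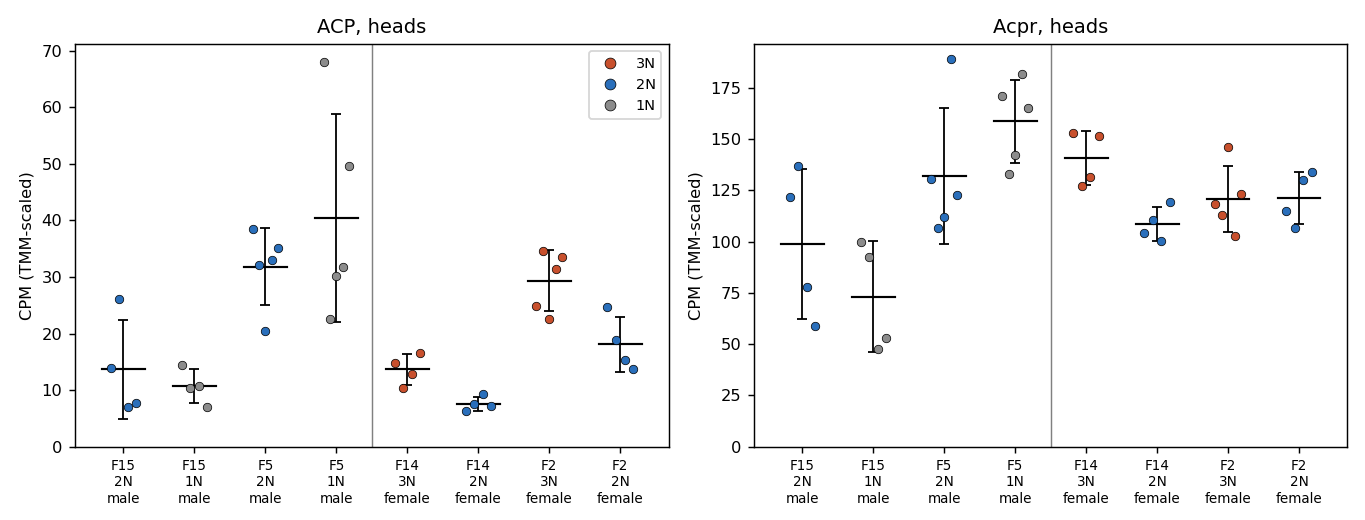
ACP (left) and Acpr (right) in heads, as CPM per library after TMM scaling, with the group mean (line) and SD (bar); F15 and F14 groups stand left of the F5 and F2 groups of their sex. ACP lies between 6.24 and 26.1 CPM in the 16 later heads and between 13.7 and 68.1 CPM in the 19 earlier ones.

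Some markers of head make-up also differed between generations. Or1 was called higher at F14 in 3N females (2.26, adjusted p = 0.0255) and at F15 in 1N males (4.78, adjusted p = 0.000324), and not in 2N females (1.36, adjusted p = 0.268) or 2N males (1.89, adjusted p = 0.120). It ran from 3.17 to 79.1 CPM at F14 against 2.53 to 40.4 CPM at F2 in 3N females, and from 329 to 377 CPM at F14 against 108 to 161 CPM at F2 in 2N females. In males it ran from 83.6 to 463 CPM at F15 against 20.0 to 159 CPM at F5 in 2N, and from 62.6 to 367 CPM at F15 against 1.65 to 21.2 CPM at F5 in 1N. The Or1 ranges of F14 and F2 overlapped in 3N females, those of F15 and F5 overlapped in 2N males, and the other 2 pairs did not overlap. Of the 3 eye markers, white was lower in 2N female heads, at 0.142 CPM at F14 against 4.25 CPM at F2 (-4.87, adjusted p = 0.000155), and no other was called in these comparisons. No muscle marker was called in any of them. The muscle sum was highest in 4 F15 male heads, C91 (8233 CPM), C82 (7760 CPM), C81 (5959 CPM) and C92 (4141 CPM), and these 4 also had the lowest Acpr of the 18 male heads. The muscle sum of the remaining male heads lay between 499 and 3828 CPM. Of the 8 neuron markers, 5 rose and 1 fell in 3N female heads at F14, none was called in 2N female heads, 1 rose and 1 fell in 2N male heads at F15, and 1 fell in 1N male heads at F15. The one that fell each time was nAChRa8, a nicotinic receptor subunit, by 0.53, 0.59 and 0.93 on the log2 scale in 3N females, 2N males and 1N males. In 3N females nAChRa3, the sodium channel gene Para and nAChRa1 rose by 2.09, 1.53 and 0.87. The part of these markers in the changes of ACP and Acpr was not tested.

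Few other peptide genes were matched in the table. Of 64 neuropeptide precursor symbols searched, ACP, Pdf, Eth and Burs were matched, and of 44 receptor symbols Acpr and Akhr. Pdf encodes pigment-dispersing factor, a peptide of clock neurons, and it fell in 1N male heads at F15, with a log2 change of -1.18 ± 0.29 and an adjusted p of 0.00395. Its changes were -0.75, -0.62 and -0.54 in 2N male, 3N female and 2N female heads, with adjusted p of 0.0875, 0.0744 and 0.205. Akhr, the receptor of adipokinetic hormone and the other gene of this peptide family matched in the table, rose in 2N female heads at F14, by 1.00 ± 0.28 with an adjusted p of 0.0172. It was not called in the other 3, with changes of -0.53 in 3N females, -0.11 in 2N males and -0.43 in 1N males. Eth (ecdysis-triggering hormone) and Burs (bursicon) averaged at most 1.83 and 0.894 CPM in any head group. Eth was called higher in 1N male heads at F15, where it averaged 1.83 CPM against 0 CPM at F5, with an adjusted p of 0.0355.

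The ploidy comparison asked whether wasps with an extra chromosome set differ from those of the same generation and sex. In female heads ACP averaged higher in 3N wasps at both generations but did not pass the test. At F14 it averaged 13.6 ± 2.71 CPM in 3N and 7.54 ± 1.27 CPM in 2N heads (SD, n = 4 each), and the groups did not overlap. The log2 difference was 0.86 ± 0.33 (SE), with an adjusted p of 0.0634, and 20.9% of genes were called. At F2 it averaged 29.4 ± 5.37 CPM in 3N (n = 5) and 18.1 ± 4.87 CPM in 2N heads (n = 4), a difference of 0.70 ± 0.31 with an adjusted p of 0.114 and 18.6% of genes called. With each pair of groups fitted alone, ACP was called at F14 (0.80, adjusted p = 0.0133) and at F2 (0.69, adjusted p = 0.0217). Those fits called more genes, 3254 of 10867 at F14 and 3659 of 10303 at F2. The difference between the 2 generations in this ploidy effect was 0.16 (95% interval -0.75 to 1.08), with an adjusted p of 0.877, where 6.25% of genes were called.

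Some markers of head make-up differed between the same 3N and 2N heads. Or1 was lower in 3N, by -2.83 at F14 and -3.74 at F2, with adjusted p of 0.0219 and 0.00272. The eye marker white averaged 0 CPM in 3N and 0.142 CPM in 2N heads at F14, and 0.0527 CPM in 3N and 4.25 CPM in 2N heads at F2, with adjusted p of 0.0330 and 2.21e-06. The other eye markers were not called. Lop1 differed by -0.76 at F14 and -0.99 at F2, and HisCl1 by -0.09 at F14 and 0.28 at F2. At F2 the muscle markers Tm1 and Zasp66 were lower in 3N, by -1.99 and -2.13, and Tm2 was not called (0.06). No muscle marker was called at F14. Of 8 neuron markers, nAChRa8 was higher in 3N at F14 (0.58) and at F2 (0.67), Para was lower at F2 (-1.24), and the others were not called. The part of these markers in the values of ACP and Acpr was not tested.

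Acpr in F14 female heads had 153, 127, 132 and 151 CPM in 3N, against 104, 110.5, 100.2 and 119 CPM in 2N. All 3N libraries lay above all 2N libraries, and the log2 difference was 0.38 ± 0.22, with an adjusted p of 0.235 (0.31 and 0.0356 with the 2 groups fitted alone). The fit of the 2 groups alone called 3254 of 10867 genes. At F2 the difference was -0.01 (95% interval -0.43 to 0.41), with an adjusted p of 0.984. Pdf was higher in 3N heads at both generations, by 1.18 ± 0.30 at F14 and 1.26 ± 0.29 at F2, with adjusted p of 0.00543 and 0.00289. Akhr was lower in 3N heads at F14, by -1.46 ± 0.28 with an adjusted p of 0.000532, and had a difference of 0.07 at F2. The change of that Akhr effect between generations, -1.53 ± 0.39, was itself called, with an adjusted p of 0.0158.

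In male heads, 2N against 1N left few genes called at all. At F15, 0.0255% of genes were called, and at F5, 0.424%. ACP differed by 0.36 (95% interval -0.31 to 1.03) at F15 and by -0.34 (-0.93 to 0.24) at F5, with adjusted p of 0.659 and 0.740. Acpr differed by 0.43 (-0.01 to 0.88) at F15 and by -0.26 (-0.66 to 0.14) at F5, with adjusted p of 0.392 and 0.692. Both genes thus had opposite signs at the 2 generations. The difference between generations was 0.70 ± 0.44 for ACP and 0.69 ± 0.29 for Acpr, with adjusted p of 0.766 and 0.558, against 0.00849% of genes called.

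Across libraries, the peptide and the receptor varied together within male heads. After each library was set against its group mean, log2 CPM of ACP and Acpr had a Pearson r of 0.64 and a Spearman rho of 0.64 over 18 male heads, each with a permutation p of 0.0113 (adjusted over 3 relations, 0.0339). Without the 2 libraries whose ACP, set against its group mean, lay farthest from the median, r was 0.60. In 17 female heads r was -0.31 (permutation p = 0.276, adjusted 0.414) and rho -0.23. In 17 male abdomens r was 0.23 (permutation p = 0.417, adjusted 0.417) and rho 0.19. The difference between male and female heads was not tested, and the muscle sums given above vary over the same male heads.

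**Figure D3:**
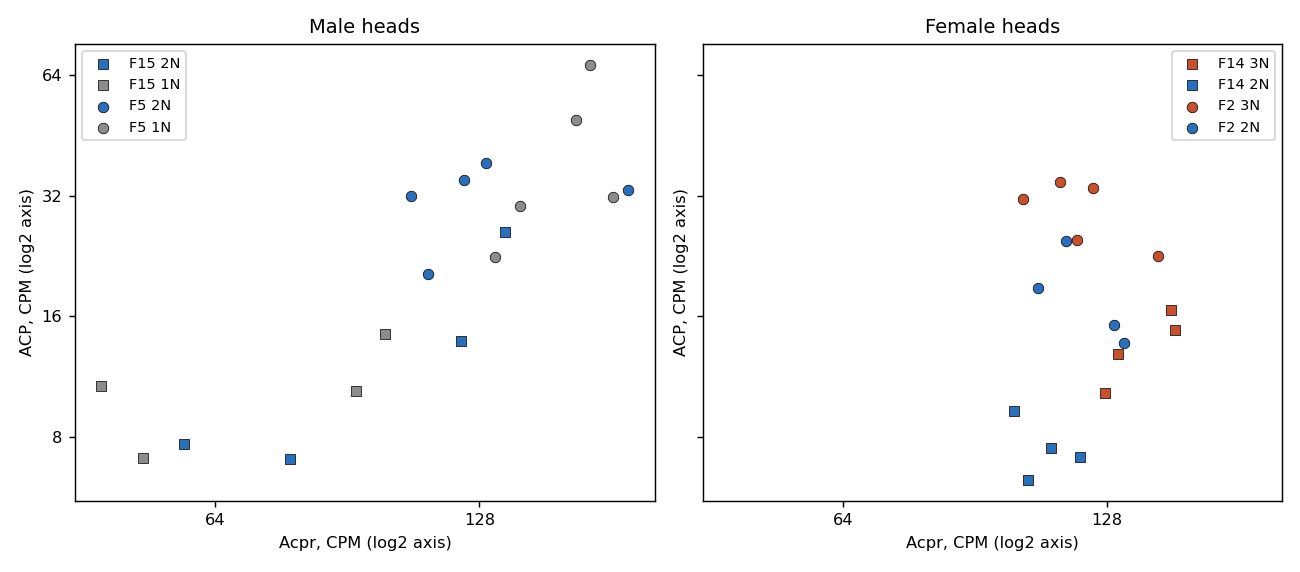
ACP against Acpr in each head library, as CPM on log2 axes, in males (left) and females (right), coloured by ploidy with squares for F15 or F14 and circles for F5 or F2. Male heads spread along both axes, from 47.5 to 189 CPM for Acpr, while female heads spread along the ACP axis with Acpr between 100.2 and 153 CPM.

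Over all 35 heads ACP and Acpr had a Pearson r of 0.60 on log2(CPM + 0.5), and many genes followed each of them more closely. Acpr was number 662 among 11784 genes in likeness to ACP. The closest to ACP were LOC100679228 (r = 0.93), LOC100123323 (0.91), LOC103315509 (0.90), LOC100124109 (0.87) and LOC100124186 (0.87), and the closest with a given symbol were Emc, Gt and CYP9AH6 (0.84, 0.84 and 0.80). The closest to Acpr were LOC100117419 (0.91), LOC100678511 (0.89), LOC100120754 (0.88), LOC100678676 (0.88) and LOC100120411 (0.87). The closest to Acpr with a given symbol were Nsf (0.85), the ATPase that frees SNARE complexes after vesicle fusion, Na-pi-t (0.78) and Ctps (0.77). These values share libraries, groups and depth, and they are a description over 35 heads.

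Males of each ploidy had more ACP in heads than 2N females, the females they were tested against. It averaged 23.8 ± 12.03 CPM in 2N males and 27.2 ± 20.4 CPM in 1N males (SD, n = 9 each), against 12.8 ± 6.55 CPM in 2N females (n = 8). Males were not tested against 3N females, whose heads averaged 13.6 CPM at F14 and 29.4 CPM at F2. The log2 difference was 0.84 ± 0.23 (SE) for 2N males, with an adjusted p of 0.0166 and 9% of genes called, and 0.83 ± 0.23 for 1N males, with an adjusted p of 0.00639 and 32.4% called. The ranges overlapped in both comparisons, and without C93 the 2N male difference was 0.57, with an adjusted p of 0.0634. By limma on log2(TPM + 0.5) the differences were 0.68 and 0.54, with adjusted p of 0.125 and 0.112, where the median of all genes was -0.18 and -0.29. By that scale 178 genes were called higher and 750 lower in 2N males, against 678 and 383 by counts, and 676 higher and 4079 lower in 1N males, against 2086 and 1738 by counts. Acpr had 117 ± 36.9 CPM in 2N male, 121 ± 50.04 CPM in 1N male and 115 ± 12.1 CPM in 2N female heads. Its differences were -0.01 (95% interval -0.31 to 0.30) and -0.09 (-0.40 to 0.22), with adjusted p of 0.989 and 0.670. Akhr was higher in male heads, by 0.74 ± 0.19 in 2N and 1.31 ± 0.19 in 1N, with adjusted p of 0.0123 and 1.34e-05. Of 8 neuron markers, none was called in 2N male heads and Syt1 was lower in 1N male heads, by -0.59 with an adjusted p of 0.00190. Or1 was lower and white higher in 1N male heads, by -2.65 and 2.33 with adjusted p of 0.00149 and 0.000446. The other 2 eye markers were not called there, and the median of the 3 was -0.21. No antennal, eye or muscle marker was called in 2N male heads.

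Abdomens held far less of both transcripts, and there males of each ploidy stood apart from 2N females. ACP averaged 3.12 ± 2.21 CPM in 2N males (n = 8) and 4.08 ± 3.02 CPM in 1N males (n = 9), against 0.147 ± 0.175 CPM in 2N females (n = 8). No male library overlapped those females. The log2 difference was 4.78 ± 0.66 for 2N and 4.999 ± 0.66 for 1N males, with adjusted p of 1.42e-07 and 6.01e-08. Acpr averaged 7.63 ± 2.59 CPM in 2N and 5.99 ± 3.69 CPM in 1N males, against 0.872 ± 0.438 CPM in 2N females, also without overlap. The 3N females were not in this test, and their F14 abdomens, at 0.101 to 4.70 CPM, overlapped the F15 1N males at 1.94 to 3.96 CPM. The Acpr differences were 3.18 ± 0.41 and 2.50 ± 0.40, with adjusted p of 3.51e-08 and 1.27e-06. In these comparisons 85.2% and 87% of all genes were called and the median of all genes was 0.54 and 0.59, so these values are to be read against that shift. Without C77 every F14 2N female abdomen stands at 0 for ACP, so no size can be given for the ACP differences in its absence. With C46 kept, the 2N male differences were 5.56 for ACP and 4.403 for Acpr.

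Other genes stood higher in male abdomens as well. All 8 neuron markers did, with medians of 2.73 log2 units for 2N and 3.13 for 1N males against 2N females, and so did the muscle markers Tm1 and Zasp66. LOC100121752, which overlaps Acpr, was higher by 3.44 and 3.20. Akhr averaged 331 CPM in 2N and 273 CPM in 1N male abdomens, against 4.19 CPM in 2N female abdomens, a log2 difference of 6.30 ± 0.49 and 5.87 ± 0.47, with adjusted p of 8.51e-13 and 2.53e-12. Unlike the pair, Akhr was lower in heads than in abdomens of males, by -3.80 ± 0.29 in 2N and -2.78 ± 0.28 in 1N, with adjusted p of 1.25e-12 and 3.59e-10. The part of tissue make-up, neural or germline, in the sex difference was not tested.

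The receptor also differed between ploidies in abdomens, with a sign that depended on generation in females. At F14, Acpr in female abdomens had 4.70, 0.101, 1.66 and 2.35 CPM in 3N, against 0.522, 0.821, 0.375 and 0.765 CPM in 2N. C68, with 2 counts, lay below every 2N library and the other 3N libraries above them all. The log2 difference was 1.80 ± 0.56 (SE), with an adjusted p of 0.0182, where 26.7% of genes were called and the median of all genes was 0.17. Without C69 it was 1.13, with an adjusted p of 0.181, without C77 it was 1.63, with an adjusted p of 0.0660, and without C79 it was 1.73, with an adjusted p of 0.0552. It was not called with the 2 groups fitted alone (1.82, adjusted p = 0.187) or by limma on log2(TPM + 0.5) (0.78, adjusted p = 0.134). The fit of the 2 groups alone called 429 of 10027 genes.

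At F2 the sign was the opposite. Acpr had 0.300, 0.369, 0.431, 0.379 and 0.194 CPM in 3N, against 0.437, 1.55, 1.35 and 1.16 CPM in 2N. These values rest on few counts, 5 to 11 per library in 3N and 12 to 38 in 2N. The lowest 2N library, C30, lay just above the highest 3N library by CPM. By TPM the groups overlapped, with C30 at 0.42 TPM and the highest 3N value at 0.44 TPM. The log2 difference was -1.73 ± 0.54, with an adjusted p of 0.0323 and 12.4% of genes called. It was no longer called without any one of C27, C28, C29, C36, C37 or C40, with values from -1.78 to -1.54. By limma on log2(TPM + 0.5) it was -0.94, with an adjusted p of 0.162. With C46 kept in the fit, neither the F14 difference (1.80, adjusted p = 0.127) nor the F2 difference (-1.73, adjusted p = 0.187) was called.

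The difference between these ploidy effects was called for both members. For Acpr, the effect at F14 exceeded that at F2 by 3.53 ± 0.78 log2 units, with an adjusted p of 0.000828, and was 2.86 without C69. The Acpr value rests on 139 counts summed over F14 3N, 64 over F14 2N, 41 over F2 3N and 119 over F2 2N abdomens. For ACP the difference was 4.55 ± 1.36, with an adjusted p of 0.0101, where 39.7% of genes were called and the median of all genes was 0.24. The ACP value rests on 14 counts summed over F14 3N, 3 over F14 2N, 7 over F2 3N and 28 over F2 2N abdomens. The ratio of summed counts, each scaled to library size, was 6.74 (95% interval 1.88 to 36.6) for 3N over 2N at F14 and 0.218 (0.0804 to 0.511) at F2, with intervals that cover counting error alone. C77 held all 3 counts of F14 2N, so no size can be given without it. C39 held 6 of the 7 counts of F2 3N, and the value was 6.59 without it, resting on 1 count. Within a generation ACP was not called, at 2.51 ± 1.04 for F14 and -2.04 ± 0.87 for F2, with adjusted p of 0.0722 and 0.117. Without C77 the F14 2N abdomens all stand at 0 and the fitted size has no meaning, though edgeR then calls it (adjusted p = 0.0159). At F2 the value was -4.18 without C39, resting on 1 count in 3N, and -2.40 without C30, with adjusted p of 0.00859 and 0.0482.

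**Figure D4:**
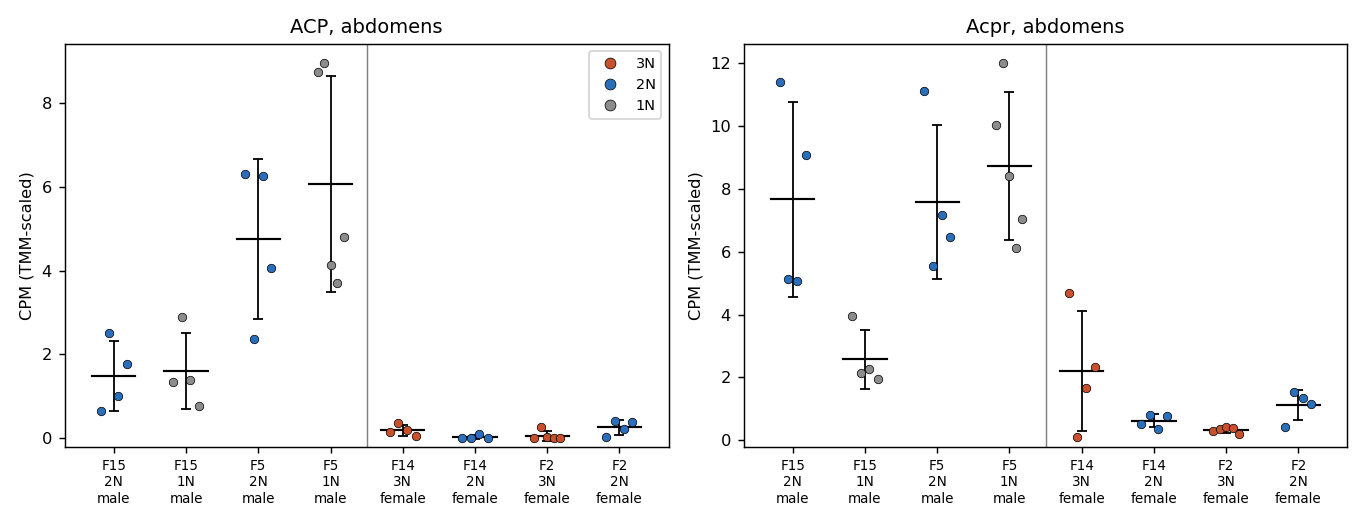
ACP (left) and Acpr (right) in abdomens, as CPM per library after TMM scaling, with the group mean (line) and SD (bar), without C46. Male abdomens lie between 0.641 and 8.96 CPM for ACP and female abdomens at or below 0.408 CPM, and the F14 3N female abdomens are the most spread female group for Acpr, from 0.101 to 4.70 CPM.

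Some neural and muscle transcripts differed in the same comparisons of female abdomens. The neuron sum was 128, 18.7, 44.8 and 88.2 CPM in C69, C68, C67 and C66 of F14 3N, against 19.5 to 25.5 CPM in F14 2N, 15.98 to 26.3 CPM in F2 3N and 16.7 to 43 CPM in F2 2N. C69 and C68 were also the highest and lowest for Acpr, and C69 had a muscle sum of 5174 CPM against 741.5 to 1209 CPM in the other F14 3N abdomens. At F14, 4 of 8 neuron markers were higher in 3N, led by Syt1 (2.12), nAChRa2 (3.87) and nAChRa1 (2.46), with a list median of 1.62, and 2 of 3 muscle markers were higher, Tm1 (1.56) and Zasp66 (2.87). At F2, nAChRa4 was lower in 3N and the other 7 neuron markers were not called, with a list median of -0.82, and none of 3 muscle markers was called. In the difference between generations 6 of 8 were higher, led by Syt1 (3.20), nAChRa4 (6.34) and nAChRa2 (5.66), with a list median of 2.72, as were Tm1 (2.10) and Zasp66 (4.61), and nanos was lower (-1.46). LOC100121752 differed by 0.74 at F14 and -0.50 at F2, with adjusted p of 0.117 and 0.317, and by 1.24 between generations, with an adjusted p of 0.0444. Akhr was likewise called between generations, at 2.19 ± 0.78 with an adjusted p of 0.0271. The part of these markers in the Acpr result was not tested.

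In male abdomens Acpr was higher in 2N than in 1N wasps at F15. It had 11.4, 5.15, 5.08 and 9.08 CPM in 2N, against 3.96, 2.15, 2.27 and 1.94 CPM in 1N. The groups did not overlap, and the log2 difference was 1.57 ± 0.54, with an adjusted p of 0.0361, where 22.4% of genes were called and the median of all genes was -0.13. It was no longer called without any one of C86, C87, C88, C96 or C99, with values from 1.32 to 1.51, or with C46 kept (1.57, adjusted p = 0.210). At F5 the difference was -0.20 (95% interval -1.23 to 0.82), with an adjusted p of 0.914 and 0.317% of genes called, and was 2.24, with an adjusted p of 0.108, with C46 kept. The difference between generations, 1.77 ± 0.74, had an adjusted p of 0.162, with 5.94% of genes called, and was -0.67 with C46 kept. No neuron marker was called at F15, and the muscle markers Tm2 and Tm1 were lower in 2N, by -2.38 and -1.27. LOC100121752 differed by 0.91, with an adjusted p of 0.0675. ACP differed by -0.09 (-1.65 to 1.46) at F15 and -0.35 (-1.79 to 1.09) at F5, with adjusted p of 0.953 and 0.888. With C46 kept the F5 value was 1.22, and the difference between generations was -1.32, against 0.26 without C46.

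Over generations, Acpr in abdomens changed in 2 of 4 strata and in opposite directions. In 3N females the values were those given above, and the F14 level was 2.68 ± 0.54 log2 units above that of F2, with an adjusted p of 0.000267, where 48.8% of genes were called and the median of all genes was 0.17. C68 lay below the F2 range and the other 3 above it, and the value was 2.01 without C69. Of the neuron markers 5 of 8 rose in the same comparison, led by Syt1 (2.47), nAChRa4 (5.47) and Para (2.12). The muscle markers Tm1 (1.42) and Zasp66 (2.88) rose too, Lop1 averaged 0.270 CPM at F14 against 0.00778 CPM at F2 (adjusted p = 0.0236), and the germline markers nanos and oskar fell by 0.98 and 0.53 on the log2 scale. The part of these markers in the Acpr change was not tested. Akhr rose by 2.09 ± 0.54, with an adjusted p of 0.00268. In 1N males Acpr had 3.96, 2.15, 2.27 and 1.94 CPM at F15, against 10.0, 12.0, 8.42, 6.11 and 7.04 CPM at F5. No F15 library reached the F5 range, and the change was -1.76 ± 0.53, with an adjusted p of 0.0211 and 16.6% of genes called. It was not called without any one of C59, C86, C87 or C88, with values from -1.70 to -1.61, or with C46 kept (-1.76, adjusted p = 0.156). LOC100121752 changed by -1.39, with an adjusted p of 0.00641, no neuron marker was called, and the muscle gene Tm2 rose by 2.01.

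ACP in 1N male abdomens had 1.34, 2.89, 1.395 and 0.767 CPM at F15, against 8.73, 8.96, 4.14, 3.70 and 4.80 CPM at F5. The groups did not overlap, yet the change of -1.93 ± 0.75 had an adjusted p of 0.0758. It was called by DESeq2 (-1.89, adjusted p = 0.0115), by limma on log2(TPM + 0.5) (-1.71, adjusted p = 0.0453) and with the 2 groups alone (-1.91, adjusted p = 0.0242). In 2N male abdomens ACP changed by -1.67 ± 0.77, with an adjusted p of 0.193 and 8.97% of genes called, and Acpr by 0.02 (95% interval -1.06 to 1.10), with an adjusted p of 0.993. In female abdomens ACP changed by 1.60 ± 0.91 in 3N and -2.95 ± 1.01 in 2N, with adjusted p of 0.143 and 0.108. Acpr in 2N females changed by -0.85 (-1.98 to 0.28), with an adjusted p of 0.447 and 2.16% of genes called. Without C39 the 3N ACP change was 3.66, with an adjusted p of 0.00611, resting on 1 count at F2. With C46 kept, the 2N male changes were -3.25 for ACP and -2.42 for Acpr.

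**Figure D5:**
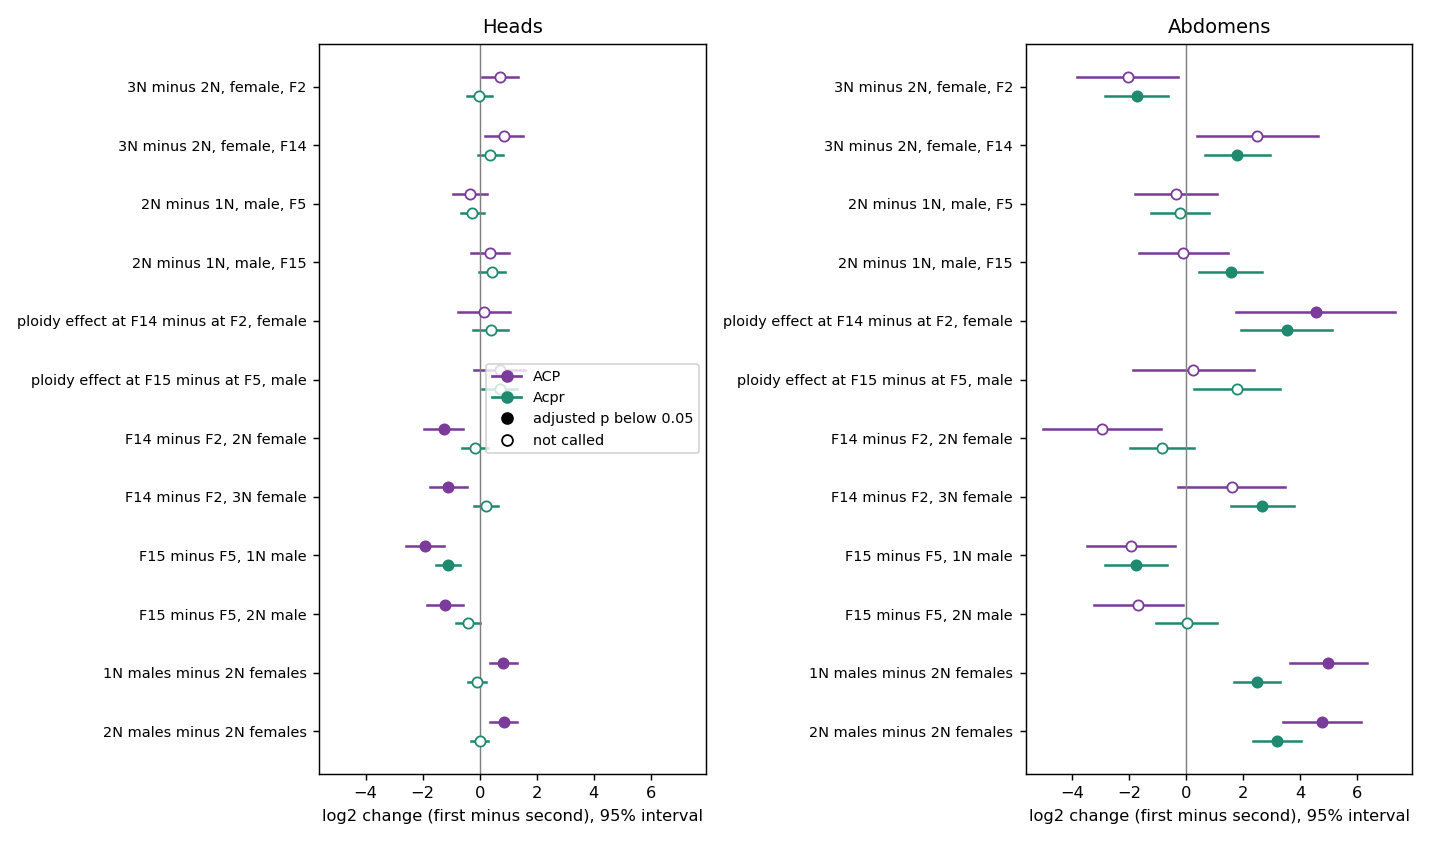
Log2 change of ACP and Acpr with its 95% interval (edgeR) in each comparison of ploidy, generation and sex, in heads (left) and abdomens (right), with filled points for an adjusted p below 0.05. In heads the 4 generation changes of ACP lie between -1.92 and -1.10, and in abdomens the intervals are wider and the called ploidy changes of Acpr lie on both sides of 0.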

How the data were processed

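The authors deposited a table of expected counts per gene and a table of TPM, made with STAR 2.7.11a and RSEM 1.3.1 per the submitters' processing notes, and no source used here names the genome build. RNA was extracted without DNase treatment, per the labels' protocols. Expected counts were rounded to whole numbers (18.2% of all values were not whole, none of them of ACP or Acpr). Totals per library were 12163580 to 25061605, and 3 counts was taken as the upper limit that a count of 0 allows. Counts were tested with edgeR 4.0.16 in R 4.3.3 (TMM, filterByExpr, quasi-likelihood F test, Benjamini-Hochberg over all genes kept, call at an adjusted p below 0.05). Every adjusted p is edgeR's unless another tool is named. Fits were made over 4 sets of libraries: heads (35 libraries, 11785 genes), abdomens without C46 (34, 12291), females (34, 12114) and males without C46 (35, 12385). Generation contrasts set 1 group against 1 group, and sex and tissue contrasts average both generations with equal weight. CPM were scaled by TMM within a fit. The procedure was tested on simulated data for the ploidy contrasts of F2 female heads and F5 male abdomens. Changes were simulated only in genes of higher mean CPM, so that test does not cover the low levels of female abdomens.

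The members and gene lists were chosen with earlier results of these data known. ACP and Acpr are given in every comparison, the listed genes are counted per direction with at most 3 named per direction, Akhr is always given, and likeness is the highest Pearson correlation over heads. Or1 was used for head make-up and LOC100121752 was added because it overlaps Acpr. Alternatives were RLE size factors, no filter, DESeq2 1.42.0, limma 3.58.1 on log2(TPM + 0.5), the compared groups alone, C46 kept and each library left out. Gene names and neighbours come from a RefSeq gene table of Nvit_psr_1.1, whose positions were used only to find neighbouring and overlapping genes and their distances; no sequences were used.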

Additional observations from a re-analysis of the deposited data

Results flagged for a closer look

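Of the 32 sets of one gene in one group, 4 held a library far from the others by Dixon's test, a test that chance alone passes in about 1 of 20 sets. ACP in F14 2N female abdomens was 0.112 CPM in C77 and 0 CPM in the other 3 libraries, a set in which the test must pass whatever the value of C77, and its 3 counts lie within the 0.0985 to 0.144 CPM that a count of 0 allows across libraries. ACP in F2 3N female abdomens was 0.277 CPM in C39 and at most 0.0392 CPM in the other 4. Acpr in F15 1N male abdomens was 3.96 CPM in C89 and 1.94 to 2.27 CPM in the others, and Acpr in F5 2N male heads was 189 CPM in C42 and 107 to 130 CPM in the others. The ploidy effect in female abdomens differed between F14 and F2 by a test of the difference itself, by 4.55 log2 units for ACP and 3.53 for Acpr. C46, labelled as an abdomen and used in no comparison, held 51.7 CPM of ACP and 175 CPM of Acpr, where the other 4 libraries of its group held 2.35 to 6.28 CPM and 5.52 to 11.04 CPM. The causes of these values were not tested.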

How the results depend on the processing

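Each of the 56 values, ACP and Acpr in 28 comparisons, kept its side of the threshold with RLE size factors and without a filter on low counts. Those that were called also kept their direction. No paired analysis was possible because the libraries are labelled with codes and share no replicate numbers. By DESeq2, 52 of 55 kept their side of the threshold, and their direction where called. ACP came to be called by DESeq2 at F14 in female abdomens between 3N and 2N (2.67). It also came to be called between F14 and F2 in 2N female abdomens (-3.17) and between F15 and F5 in 1N male abdomens (-1.89). By limma on log2(TPM + 0.5), ACP lost its call between generations in 2N female heads (-0.66), 3N female heads (-0.43) and 2N male heads (-1.18) and between the sexes in heads of 1N (0.54) and 2N males (0.68), and Acpr lost it between 3N and 2N in female abdomens at F2 (-0.94) and F14 (0.78). ACP came to be called there in F14 female abdomens between ploidies (1.78), in 3N female abdomens between generations (1.62) and in 1N male abdomens between generations (-1.71). With libraries centred on their median gene, chosen after seeing the data, the head calls of ACP stayed and ACP at F14 between 3N and 2N heads was also called (0.98), as were ACP in F14 female abdomens (1.96) and 1N male abdomens (-1.94), while Acpr in female abdomens was not, at F2 (-0.73) or F14 (0.97). With the compared groups alone, ACP between ploidies in female heads at F2 (0.69) and F14 (0.80), Acpr there at F14 (0.31) and ACP in 1N male abdomens (-1.91) were called, and ACP in 2N male heads between generations (-1.20) and Acpr in F14 female abdomens (1.82) were not. These fits called from 2 genes (2N male heads) to 3659 genes (F2 female heads). With C46 kept, Acpr lost its calls in female abdomens at F2 (-1.73) and F14 (1.80), between male ploidies at F15 (1.57) and in 1N males between generations (-1.76). ACP in 2N male abdomens between generations became called (-3.25), Acpr there reversed to -2.42, and the group means were 133 TPM for ACP and 38.1 TPM for Acpr. Leaving out each library in turn kept the side of the threshold, and the direction where called, of 661 of 686 values. Values that were not called could change sign, as for ACP between ploidies in F15 male heads (-0.16 to 0.57). Where a call changed, the values ran from -1.74 to -1.003 for ACP between generations in 2N male heads, 0.57 to 0.95 for ACP between 2N males and 2N females in heads, and, for ACP in female abdomens, -4.18 to -1.73 between ploidies at F2, 2.01 to 5.02 at F14 and 1.11 to 3.66 between generations in 3N, where 5.02 has every F14 2N library at 0 and is no measure of size. For Acpr they ran from -1.996 to -1.54 at F2 and 1.13 to 2.21 at F14 between female ploidies, 1.32 to 1.85 between male ploidies at F15 and -2.04 to -1.61 between generations in 1N male abdomens. The cause of each change was not tested, except that C46 itself sets the F5 2N male abdomen values. ACP in female abdomens rests on at most 11 counts a library, which limits every comparison there. Acpr held 2 to 60 counts a library in the same abdomens.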
